A study of Mus musculus with 11 samples.

Results

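The genes described here are 44 mouse genes whose transcripts mark dividing cells, out of 23352 gene symbols measured. They were named for their known roles in replication and division. The rule that names them uses no measured value, but the list was chosen with earlier results of these data known. They comprise 20 genes of S phase, 21 genes of mitosis and 3 transcription factors (E2f1, Mybl2 and Foxm1) that switch such genes on. All 44 were found in the tables, and all 44 passed the filter on low values. Total RNA was sequenced in 3 mouse lines from a study of how cells read BMP signals: E14 embryonic stem (ES) cells of strain 129/Ola, kept with LIF and serum on gelatin, NIH3T3 fibroblasts of strain NIH/Swiss, and NMuMG mammary epithelial cells of strain NAMRU. No BMP treatment is given in the labels, and each line had its own medium and serum, so line and medium cannot be told apart. The ES cultures were ES reporter 1, ES reporter 2 and ES parental 1, the NIH3T3 cultures were numbered 1 to 3, and the NMuMG cultures were reporter 1, reporter 2, parental 1 and parental 2. Reporter cultures carry a BRE reporter, a reporter gene behind a BMP response element, and parental cultures carry no transgene. By its labels NIH3T3 1 was parental. The tables of NIH3T3 2 and 3 name only the line, and the samples left to match them are labelled with the reporter. The labels call the cultures biological replicates without saying whether they were grown apart on separate days, so p-values measure the spread between these cultures.

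In dividing cells, E2F factors released from RB-family proteins switch on the genes that license origins, make nucleotides and run the replication fork. Later in the cycle B-MYB (the product of Mybl2) and FOXM1, bound to the MuvB complex, switch on the genes for mitotic cyclins, kinases and spindle proteins. Promoters of many late genes carry CCAAT boxes bound by NF-Y together with a cell cycle genes homology region (CHR), the element that MuvB binds. Mouse ES cells are known for a short G1 phase, and NIH3T3 fibroblasts for leaving the cycle when they become confluent or run short of serum.

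Promoter windows from RefSeq on build GRCm38.p6, which reached 250 bases before and 50 bases after a gene's start, were at hand for 36 of the 44 genes. There was no window here for Gins2, Aurkb, Ccna2, Foxm1, Gmnn, Pole, Mcm4 and Tpx2. The windows of 3 mitosis genes and 3 S phase genes are shown, and they were picked for holding the letters searched. Among genes called higher in ES than in NMuMG cells below, they are the most abundant with the CHR (mitosis) or an E2F match (S phase). Capitals mark CCAAT (reverse ATTGG) and the CHR TTTGAA (reverse TTCAAA) in the mitosis genes. In the S phase genes they mark CCAAT and the E2F letters TTCCCGC, or also TTGGCGC, or also TTCGCGC, or also TTGCCGC, on either strand. Each sequence is written 5′ to 3′ on the gene's strand.
Ube2c (ubiquitin-conjugating enzyme of the anaphase-promoting complex, chr2:164769679-164769978, plus strand): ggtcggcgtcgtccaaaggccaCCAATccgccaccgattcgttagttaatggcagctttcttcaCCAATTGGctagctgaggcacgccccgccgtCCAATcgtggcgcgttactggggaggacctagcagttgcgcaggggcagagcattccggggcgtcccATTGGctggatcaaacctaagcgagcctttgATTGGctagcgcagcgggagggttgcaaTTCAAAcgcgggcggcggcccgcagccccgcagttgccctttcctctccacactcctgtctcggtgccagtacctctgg
Cdc20 (activator of that complex, chr4:118437294-118437593, minus strand): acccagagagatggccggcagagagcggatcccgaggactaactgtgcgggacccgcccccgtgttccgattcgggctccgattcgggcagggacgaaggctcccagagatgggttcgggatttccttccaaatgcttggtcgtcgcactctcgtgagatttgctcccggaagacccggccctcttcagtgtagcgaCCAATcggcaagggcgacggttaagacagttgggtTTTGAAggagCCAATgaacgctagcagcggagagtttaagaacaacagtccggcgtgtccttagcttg
Top2a (topoisomerase that untangles chromosomes, chr11:99024140-99024439, minus strand): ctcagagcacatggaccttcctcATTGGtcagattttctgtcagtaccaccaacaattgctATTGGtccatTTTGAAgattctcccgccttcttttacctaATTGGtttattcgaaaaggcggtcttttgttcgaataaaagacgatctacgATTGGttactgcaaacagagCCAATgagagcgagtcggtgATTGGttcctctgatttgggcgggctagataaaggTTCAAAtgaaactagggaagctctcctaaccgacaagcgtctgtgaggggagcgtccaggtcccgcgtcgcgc
Mcm3 (subunit of the replicative helicase, chr1:20820263-20820562, minus strand): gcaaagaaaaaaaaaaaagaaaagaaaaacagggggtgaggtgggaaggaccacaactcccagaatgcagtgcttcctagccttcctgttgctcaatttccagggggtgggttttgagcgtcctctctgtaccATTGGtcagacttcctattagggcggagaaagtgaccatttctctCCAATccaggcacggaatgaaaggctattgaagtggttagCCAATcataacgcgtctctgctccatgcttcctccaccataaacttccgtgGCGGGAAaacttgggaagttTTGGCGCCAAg
Mcm5 (another subunit of that helicase, chr8:75109259-75109558, plus strand): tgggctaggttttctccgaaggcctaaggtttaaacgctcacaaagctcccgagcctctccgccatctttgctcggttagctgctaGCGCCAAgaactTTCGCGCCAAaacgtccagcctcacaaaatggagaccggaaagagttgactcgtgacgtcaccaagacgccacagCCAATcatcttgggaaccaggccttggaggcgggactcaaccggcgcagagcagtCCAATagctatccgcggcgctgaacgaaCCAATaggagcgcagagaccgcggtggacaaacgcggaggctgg
Rrm2 (small subunit of ribonucleotide reductase, chr12:24708004-24708303, plus strand): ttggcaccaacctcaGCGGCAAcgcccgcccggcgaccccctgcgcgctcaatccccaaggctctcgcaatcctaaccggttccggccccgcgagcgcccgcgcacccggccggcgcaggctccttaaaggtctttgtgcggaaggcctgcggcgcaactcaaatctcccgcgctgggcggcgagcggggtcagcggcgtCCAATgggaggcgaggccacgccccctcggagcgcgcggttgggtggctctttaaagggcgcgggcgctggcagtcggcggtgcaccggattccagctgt

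The CHR letters TTTGAA stood in the windows of 13 of 18 mitosis genes (72.2%) and 3 of 16 S phase genes (18.8%), against 20.2% of all 27025 genes with such a window. Its variant TTTAAA was present in 38.9% of the mitosis genes and 12.5% of the S phase genes, against 14.9% of all genes. A CCAAT box was present in 16 of 18 mitosis genes (88.9%) and 9 of 16 S phase genes (56.2%), against 41.1% of all genes. All 13 mitosis genes with TTTGAA also had CCAAT, a pair found in 8.97% of all genes. The E2F letters had the opposite distribution and stood in 12 of 16 S phase genes (75.0%) and 3 of 18 mitosis genes (16.7%), against 10.9% of all genes. Neither E2f1 nor Mybl2 held any of the searched letters in its window, which says only that these letters are not in these windows. Both strands were searched, a gene with several windows was counted once, and TTGGCGC on one strand can overlap itself or TTCGCGC on the other, as in Mcm3 and Mcm5. A match is a description of letters and was not tested as a binding site.

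**Figure D1:**
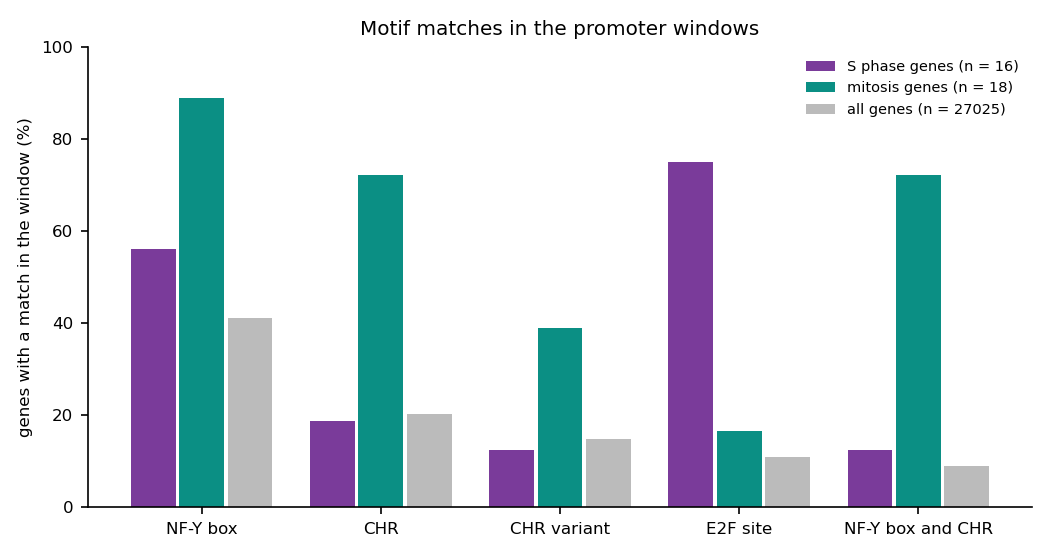
Share of genes with a motif match in the promoter window, in percent, for 16 S phase genes, 18 mitosis genes and all 27025 genes. Mitosis genes stand highest for the NF-Y box and CHR (72.2% with both), and S phase genes for the E2F site (75.0%).

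Levels are in FPKM, a unit scaled to transcript length and to the mapped fragments of each library, so they can be set against each other between genes. Each line expressed its own markers. The summed level of 8 ES markers was 4290 to 5502 FPKM in ES cultures, against 0.336 to 1.43 FPKM in NIH3T3 and 1.25 to 5.24 FPKM in NMuMG cultures. Fibroblast markers summed to 3.11 to 5.00 FPKM in ES cultures, 2511 to 6823 FPKM in NIH3T3 cultures and 0.200 to 1.57 FPKM in NMuMG cultures. Epithelial markers summed to 177 to 229 FPKM in ES cultures, 0.202 to 0.881 FPKM in NIH3T3 cultures and 4564 to 6744 FPKM in NMuMG cultures, although Cldn4 and Cldn7 were under 1 FPKM in all 4 of them. The labels name no batch, and the 3 library series used here were read from runs of library numbers alone. Series 1 holds ES reporter 1, ES parental 1, NMuMG reporter 1 and NMuMG parental 1, series 2 holds ES reporter 2, NIH3T3 1, NMuMG reporter 2 and NMuMG parental 2, and series 3 holds NIH3T3 2 and 3. Read numbers were not given, and depth is unknown. As read from the deposited intervals, which limits its precision, depth relative to ES parental 1 was 0.933 to 1.28 in series 1 and 2 and 3.80 to 3.81 in series 3. The 2 technical runs of ES reporter 1 differed by at most 0.12 on the log2 scale for any of the 44 genes, and their mean was used.

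The NMuMG cultures lay far apart in these genes, with reporter 2 at the low end and parental 2 at the high end. NMuMG parental 2 had the highest value of the 4 for all 44 genes (32.8% of all tested genes). NMuMG reporter 2 had the lowest value of the 4 NMuMG cultures for 43 of the 44 genes, a rank it held for 31.5% of all tested genes, and the lowest value of all 10 cultures for 42 genes (12.1% of all tested genes).

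The mean level of the S phase genes was 6.21 ± 0.0304 on the log2(FPKM + 1) scale in ES cells (SD, n = 3), 4.89 ± 0.785 in NIH3T3 cells (n = 3) and 4.06 ± 1.18 in NMuMG cells (n = 4). That of the mitosis genes was 6.08 ± 0.225 in ES cells, 4.90 ± 0.229 in NIH3T3 cells and 3.67 ± 1.57 in NMuMG cells. By culture, the S phase mean was 6.18, 6.24 and 6.20 in ES reporter 1, ES reporter 2 and ES parental 1. It was 4.81, 5.71 and 4.14 in NIH3T3 1, 2 and 3, and 4.28, 2.56, 3.98 and 5.44 in NMuMG reporter 1, reporter 2, parental 1 and parental 2. The mitosis mean was 6.33, 5.92 and 5.98 in the ES cultures in the same order, 5.07, 5.00 and 4.64 in the NIH3T3 cultures, and 4.15, 1.60, 3.57 and 5.36 in the NMuMG cultures. The 3 ES cultures lay above the other 7 in both means. For S phase part of the gap comes from Rfc4 and Gins2, which are listed at 0 in some cultures. Without them the S phase mean was 6.03 in NIH3T3 2 and 6.18 in ES reporter 1, the lowest ES culture. The NIH3T3 and NMuMG cultures overlapped, because NMuMG parental 2 stood above every NIH3T3 culture for mitosis and above NIH3T3 1 and 3 for S phase.

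**Figure D2:**
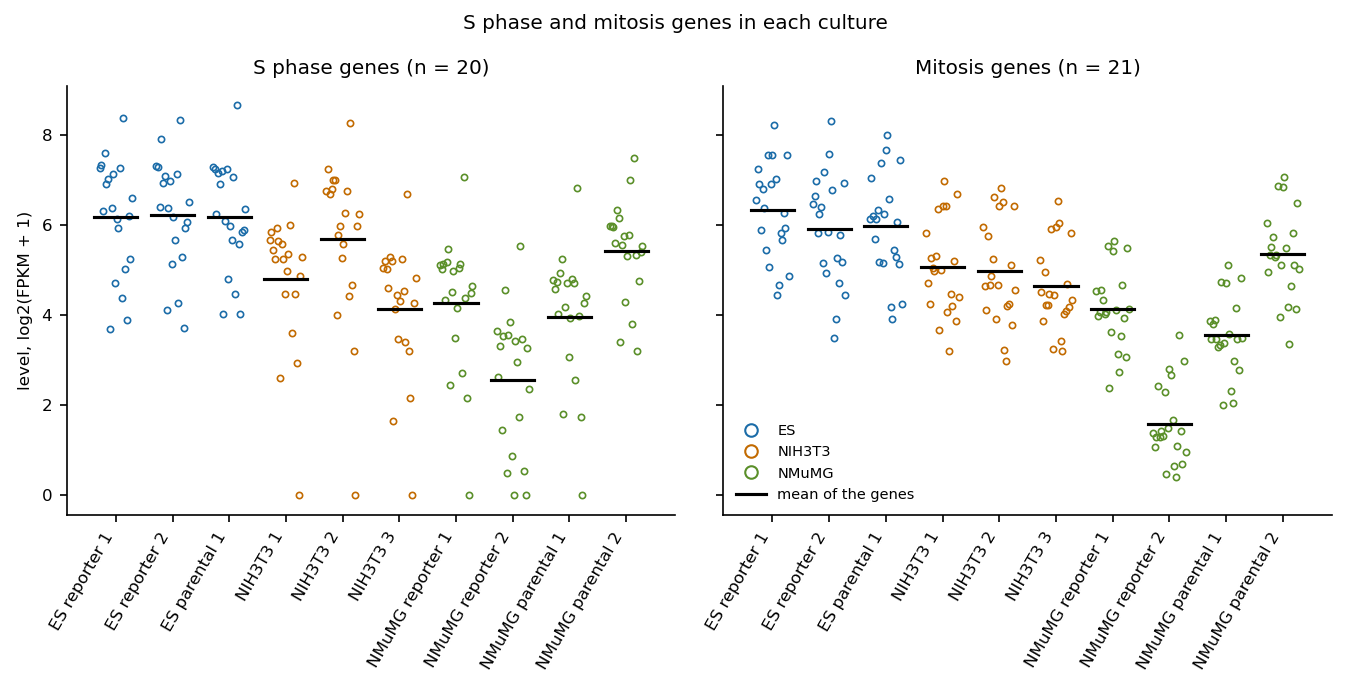
Level of every S phase gene (left, 20 genes) and mitosis gene (right, 21 genes) in each of the 10 cultures, as log2(FPKM + 1), with 1 open point per gene and a bar for the mean of the genes. ES cultures sit highest in both panels, and NMuMG reporter 2 sits lowest, with a mitosis mean of 1.60.

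ES cells had more transcript than NMuMG cells for most of the genes. Of the 44, 36 rose in ES cells (adjusted p under 0.05 and at least a 2-fold change in limma), none fell, and all 44 log2 changes were above 0. Over all 12350 genes tested, 45.8% were called in this comparison and 19.4% were called higher in ES cells. The calls were 18 of 20 S phase genes, 17 of 21 mitosis genes and 1 of 3 transcription factors. Median log2 changes were 1.94 for S phase genes and 2.55 for mitosis genes, against -0.09 for all genes tested. In 35 of the 44 genes every ES culture lay above every NMuMG culture, which held for 32.1% of all tested genes. Without NMuMG reporter 2, 32 genes were called (14 of S phase, 17 of mitosis and 1 factor), with medians of 1.49 and 1.86. Without NMuMG parental 2, all 44 were called. Of all tested genes, those fits called 2302 of 12289 and 2539 of 12290 higher. With each culture left out in turn, 27 of the 36 stayed called throughout. The other 9, whose call was lost in at least 1 case, were Mcm4, Cdc6, Cdc45, Gins2, Rrm2 and Fen1 of S phase and Ccna2, Cdk1 and Birc5 of mitosis. Within library series 1, which holds 2 ES and 2 NMuMG cultures, 39 were called, where 1680 of 9771 tested genes were called higher. Series 1 leaves out NMuMG reporter 2 and NMuMG parental 2. None of the 44 genes differed 2-fold between its NMuMG cultures, so the count of 39 is no check of stability. Within series 2 the medians were 2.01 and 2.61 and none was called. It holds 1 ES culture, and its spread comes from the NMuMG pair that differs most in these genes, so that count says nothing about stability. Fewer cells in S phase or mitosis and less RNA per such cell cannot be told apart in these bulk samples.

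Among the origin licensing and helicase genes, 11 of 11 rose in ES cells over NMuMG cells. Mcm3, a subunit of the MCM2-7 helicase, stood at 162, 158 and 151 FPKM in the ES cultures, at 56.5, 152 and 36.3 FPKM in NIH3T3 and at 31.6, 5.21, 23.0 and 62.4 FPKM in NMuMG. Its ES values were all above its NMuMG values, with a log2 change of 2.75 (SE 0.694, adjusted p = 0.00519), while NIH3T3 2 lay within the ES range. Mcm5 (chromosome 8, 75109528 to 75128439, mm10), of the same helicase, had the largest change of the class. It was at 194, 241 and 144 FPKM in ES, 37.0, 111 and 23.3 FPKM in NIH3T3 and 19.2, 1.73, 15.4 and 48.0 FPKM in NMuMG cultures. The ES and NMuMG values did not overlap, and the log2 change of 3.71 (SE 0.841, adjusted p = 0.00277) passed the threshold. The other MCM subunits Mcm2, Mcm4, Mcm6 and Mcm7 had ES means of 156 ± 2.57, 79.6 ± 3.92, 120.5 ± 1.30 and 137 ± 8.45 FPKM and rose by 2.41, 1.54, 1.92 and 1.74 on the log2 scale over NMuMG. Mcm7 lies over 3 microRNA genes (Mir106b, Mir25 and Mir93), so its reads may be shared. The loading factors Cdc6 and Cdt1 rose by 1.91 and 1.82, and geminin (Gmnn), the inhibitor of Cdt1, by 2.30. Cdc45 and Gins2, which complete the active helicase with the MCM ring, rose by 1.96 and 2.74. Gins2 overlaps Gse1 and was listed at 0 in NMuMG reporter 2 alone, so its change is uncertain. Cdc6 was the least abundant of the class at 14.6 ± 2.25 FPKM in ES, 7.45 ± 6.80 FPKM in NIH3T3 and 4.25 ± 3.93 FPKM in NMuMG cells. Mcm5, Cdt1 and Gins2 are the 3 members on chromosome 8, with changes of 3.71, 1.82 and 2.74. Only Mybl2 (5.36) and Rfc4 (4.81), on other chromosomes, had larger changes than Mcm5, and the call of Rfc4 is uncertain. The part of the chromosome in these changes was not tested.

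The nucleotide supply genes were less uniform. Rrm2, the cell cycle regulated subunit of ribonucleotide reductase, was at 154, 139.6 and 134 FPKM in ES, 63.5, 108 and 22.3 FPKM in NIH3T3 and 34.6, 6.83, 25.5 and 127 FPKM in NMuMG cultures. NMuMG parental 2 approached the ES range while the other NMuMG cultures were far below it, and the log2 change of 2.20 (SE 0.797, adjusted p = 0.0311) was called. Rrm1, the large subunit of the same enzyme, stood at 60.2, 49.9 and 50.4 FPKM in ES, 40.4, 76.5 and 37.1 FPKM in NIH3T3 and 32.3, 9.79, 27.0 and 54.6 FPKM in NMuMG cultures. Its groups overlapped, and its log2 change of 0.99 (SE 0.468, adjusted p = 0.0831) missed both thresholds. Tyms, thymidylate synthase, averaged 19.9 ± 1.45 FPKM in ES and 6.45 ± 4.54 FPKM in NMuMG cells, with a log2 change of 1.67 (SE 0.416, adjusted p = 0.00477).

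At the replication fork, 5 of 6 genes rose in ES cells over NMuMG cells. Pcna, the sliding clamp of the fork polymerases, had the highest mean of all 44 genes. It was at 335, 323 and 405 FPKM in ES, 122, 311 and 103 FPKM in NIH3T3 and 133, 45.3, 113 and 180.1 FPKM in NMuMG cultures, with a log2 change of 1.73 (SE 0.472, adjusted p = 0.00782). In NMuMG reporter 2, its 45.3 FPKM was the highest value of any of the 44 genes. Lig1, which joins Okazaki fragments and overlaps an unnamed transcript, was at 96.1, 91.0 and 81.9 FPKM in ES, 38.4, 75.8 and 27.3 FPKM in NIH3T3 and 24.1, 4.18, 20.6 and 45.5 FPKM in NMuMG cultures, and rose with a log2 change of 2.25 (SE 0.620, adjusted p = 0.00831). Fen1, the flap nuclease, rose by 1.38 on the log2 scale, and Pole, the catalytic subunit of the leading-strand polymerase, by 1.97. Pold1, the catalytic subunit of the lagging-strand polymerase, averaged 39.2 ± 7.83 FPKM in ES and 21.1 ± 12.9 FPKM in NMuMG cells, and its log2 change of 1.02 (SE 0.448, adjusted p = 0.0662) missed the threshold. Rfc4 (chromosome 16, 23113948 to 23127730, mm10), a subunit of the clamp loader, overlaps Eif4a2. It had 73.5, 60.3 and 56.8 FPKM in the ES cultures and 26.1 FPKM in NMuMG parental 2, and was listed at 0 in the other 6 cultures. Its call in ES over NMuMG is therefore uncertain, and no fold against NIH3T3 is given.

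Of the 3 transcription factors, Mybl2 alone rose in ES cells over NMuMG cells. Mybl2 (chromosome 2, 163054635 to 163084687, mm10), which encodes B-MYB, stood at 144, 155 and 119 FPKM in ES, 4.99, 15.7 and 3.37 FPKM in NIH3T3 and 2.50, 0.330, 2.06 and 8.42 FPKM in NMuMG cultures. All ES values were above every value of both other lines, and the log2 change of 5.36 (SE 0.607, adjusted p = 2.63e-05) was the largest of the 44. E2f1 (chromosome 2, 154559639 to 154569852, mm10), an activator of S phase genes, was at 15.3, 12.2 and 15.1 FPKM in ES, 19.1, 39.7 and 13.4 FPKM in NIH3T3 and 7.85, 3.80, 6.43 and 14.5 FPKM in NMuMG cultures. It was highest in NIH3T3 cells on average, and its log2 change of 0.86 (SE 0.410, adjusted p = 0.0874) between ES and NMuMG cells was not called. Foxm1, the mitotic factor, was at 14.1, 15.8 and 12.5 FPKM in ES, 28.5, 29.6 and 16.4 FPKM in NIH3T3 and 11.1, 1.57, 7.28 and 31.6 FPKM in NMuMG cultures. NMuMG parental 2 had the highest Foxm1 value of the 10 cultures, and Foxm1's log2 change of 0.65 (SE 0.663, adjusted p = 0.401) between ES and NMuMG cells was not called. Foxm1 overlaps an unnamed transcript.

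All 4 genes of the mitotic cyclins and their kinase rose in ES cells over NMuMG cells. Ccnb1, cyclin B1, was at 151, 99.7 and 132 FPKM in ES, 25.2, 24.3 and 21.9 FPKM in NIH3T3 and 14.9, 1.11, 10.1 and 30.1 FPKM in NMuMG cultures. The ES cultures stood apart from all others, and the log2 change of 3.61 (SE 0.704, adjusted p = 0.00110) was the largest among the mitosis genes. Ccna2, cyclin A2, which overlaps Exosc9, was at 94.4, 88.5 and 69.3 FPKM in ES, 56.0, 61.4 and 36.6 FPKM in NIH3T3 and 22.4, 1.61, 13.6 and 65.9 FPKM in NMuMG cultures. NMuMG parental 2 was above the NIH3T3 range and just below the ES range, and the log2 change of 2.43 (SE 0.834, adjusted p = 0.0244) was called. Ccnb2, cyclin B2, rose by 3.07 on the log2 scale, and Cdk1, the kinase they activate, by 1.70.

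Of the mitotic kinases and the chromosomal passenger complex, 3 of 4 genes rose. Birc5, survivin, was at 189, 146 and 167 FPKM in ES, 80.9, 97.8 and 59.2 FPKM in NIH3T3 and 45.4, 3.90, 25.8 and 116 FPKM in NMuMG cultures, with a log2 change of 2.52 (SE 0.820, adjusted p = 0.0191). Plk1, the polo-like kinase of mitotic entry, was at 111, 75.6 and 69.3 FPKM in ES, 32.4, 24.6 and 17.8 FPKM in NIH3T3 and 19.3, 1.46, 10.2 and 52.6 FPKM in NMuMG cultures, with a log2 change of 2.68 (SE 0.806, adjusted p = 0.0129). For both genes all ES values lay above all values of the other lines. Aurka, the centrosomal Aurora kinase, was at 82.5, 84.5 and 79.9 FPKM in ES, 30.6, 28.6 and 17.7 FPKM in NIH3T3 and 15.3, 1.71, 8.81 and 38.3 FPKM in NMuMG cultures, with a log2 change of 2.87 (SE 0.694, adjusted p = 0.00409). Aurkb, the Aurora kinase of the passenger complex, averaged 37.6 ± 4.63 FPKM in ES and 16.6 ± 16.5 FPKM in NMuMG cells. NMuMG parental 2 lay within the ES range of Aurkb, and the gene's log2 change of 1.74 (SE 0.729, adjusted p = 0.0551) missed the threshold.

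The 4 genes of the spindle checkpoint and of anaphase promotion all rose in ES cells. Ube2c, the conjugating enzyme of the anaphase-promoting complex, was at 301, 317 and 256 FPKM in ES, 126, 112 and 92.1 FPKM in NIH3T3 and 49.7, 5.40, 33.9 and 134 FPKM in NMuMG cultures, with a log2 change of 3.05 (SE 0.777, adjusted p = 0.00544). Cdc20, an activator of that complex whose entry overlaps Elovl1, was at 189, 191 and 205 FPKM in ES, 85.9, 85.5 and 61.9 FPKM in NIH3T3 and 42.2, 6.04, 25.6 and 115 FPKM in NMuMG cultures, with a log2 change of 2.65 (SE 0.714, adjusted p = 0.00738). Both promoters shown above hold CCAAT letters, and they were picked for holding the CHR letters. For both genes the ES cultures were above all others. The checkpoint kinase Bub1 and its relative Bub1b rose by 2.85 and 2.94 on the log2 scale.

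At the centromere, Cenpa (chromosome 5, 30666902 to 30674826, mm10), the histone H3 variant that marks it, was at 129, 109 and 94.8 FPKM in ES, 85.6, 90.2 and 65.1 FPKM in NIH3T3 and 16.4, 2.21, 11.1 and 44.1 FPKM in NMuMG cultures. Both ES and NIH3T3 values lay above every NMuMG value, and the log2 change of 3.07 (SE 0.675, adjusted p = 0.00231) of ES over NMuMG cells was called. Cenpe, a kinetochore motor, was at 20.8, 10.4 and 17.4 FPKM in ES, 16.0, 8.47 and 9.86 FPKM in NIH3T3 and 7.90, 0.563, 4.0 and 17.3 FPKM in NMuMG cultures. Its groups overlapped, and its log2 change of 1.47 (SE 0.674, adjusted p = 0.0751) was not called. Cenpf, another kinetochore protein, rose by 2.03.

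Spindle motors and microtubule binding proteins rose in 3 of 4 cases. Tpx2, which activates Aurora A on the spindle, was at 76.9, 54.3 and 66.0 FPKM in ES, 36.1, 33.6 and 24.8 FPKM in NIH3T3 and 14.4, 1.69, 10.1 and 33.9 FPKM in NMuMG cultures, with a log2 change of 2.55 (SE 0.663, adjusted p = 0.00608). Nusap1, a spindle protein whose entry overlaps Oip5, was at 60.5, 35.4 and 34.2 FPKM in ES, 13.8, 12.8 and 17.2 FPKM in NIH3T3 and 7.39, 0.615, 5.96 and 16.7 FPKM in NMuMG cultures, with a log2 change of 2.74 (SE 0.636, adjusted p = 0.00316). The ES cultures lay above all others for both. Kif11, the motor that pushes spindle poles apart, rose by 2.46 on the log2 scale. Kif23, the motor of the central spindle, had another order. It was at 50.1, 25.5 and 38.3 FPKM in ES, 17.6, 18.0 and 16.1 FPKM in NIH3T3 and 24.6, 10.8, 16.9 and 55.6 FPKM in NMuMG cultures. NMuMG parental 2 had the highest Kif23 value and the NIH3T3 values were within the NMuMG range, and the log2 change of 0.68 (SE 0.445, adjusted p = 0.200) was not called.

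Of the genes of the mitotic chromosome, Top2a, topoisomerase II alpha, was at 189.6, 121 and 176 FPKM in ES, 102, 85.4 and 55.8 FPKM in NIH3T3 and 43.9, 6.94, 27.5 and 89.6 FPKM in NMuMG cultures, with a log2 change of 2.37 (SE 0.653, adjusted p = 0.00825). Every ES value of Top2a was above all other values. Mki67 (chromosome 7, 135689788 to 135716379, mm10) encodes Ki-67, the coat protein of mitotic chromosomes that is widely used as a mark of cycling cells. It was at 28.2, 20.8 and 18.1 FPKM in ES, 20.4, 22.8 and 19.3 FPKM in NIH3T3 and 16.8, 0.955, 10.3 and 31.6 FPKM in NMuMG cultures. The ES and NIH3T3 ranges overlapped, NMuMG parental 2 was above both, and none of the 3 line comparisons called it. It had a log2 change of 1.11 (SE 0.744, adjusted p = 0.207) for ES over NMuMG, one of 1.04 for NIH3T3 over NMuMG (adjusted p = 0.301) and one of 0.08 for ES over NIH3T3 (adjusted p = 0.944).

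**Figure D3:**
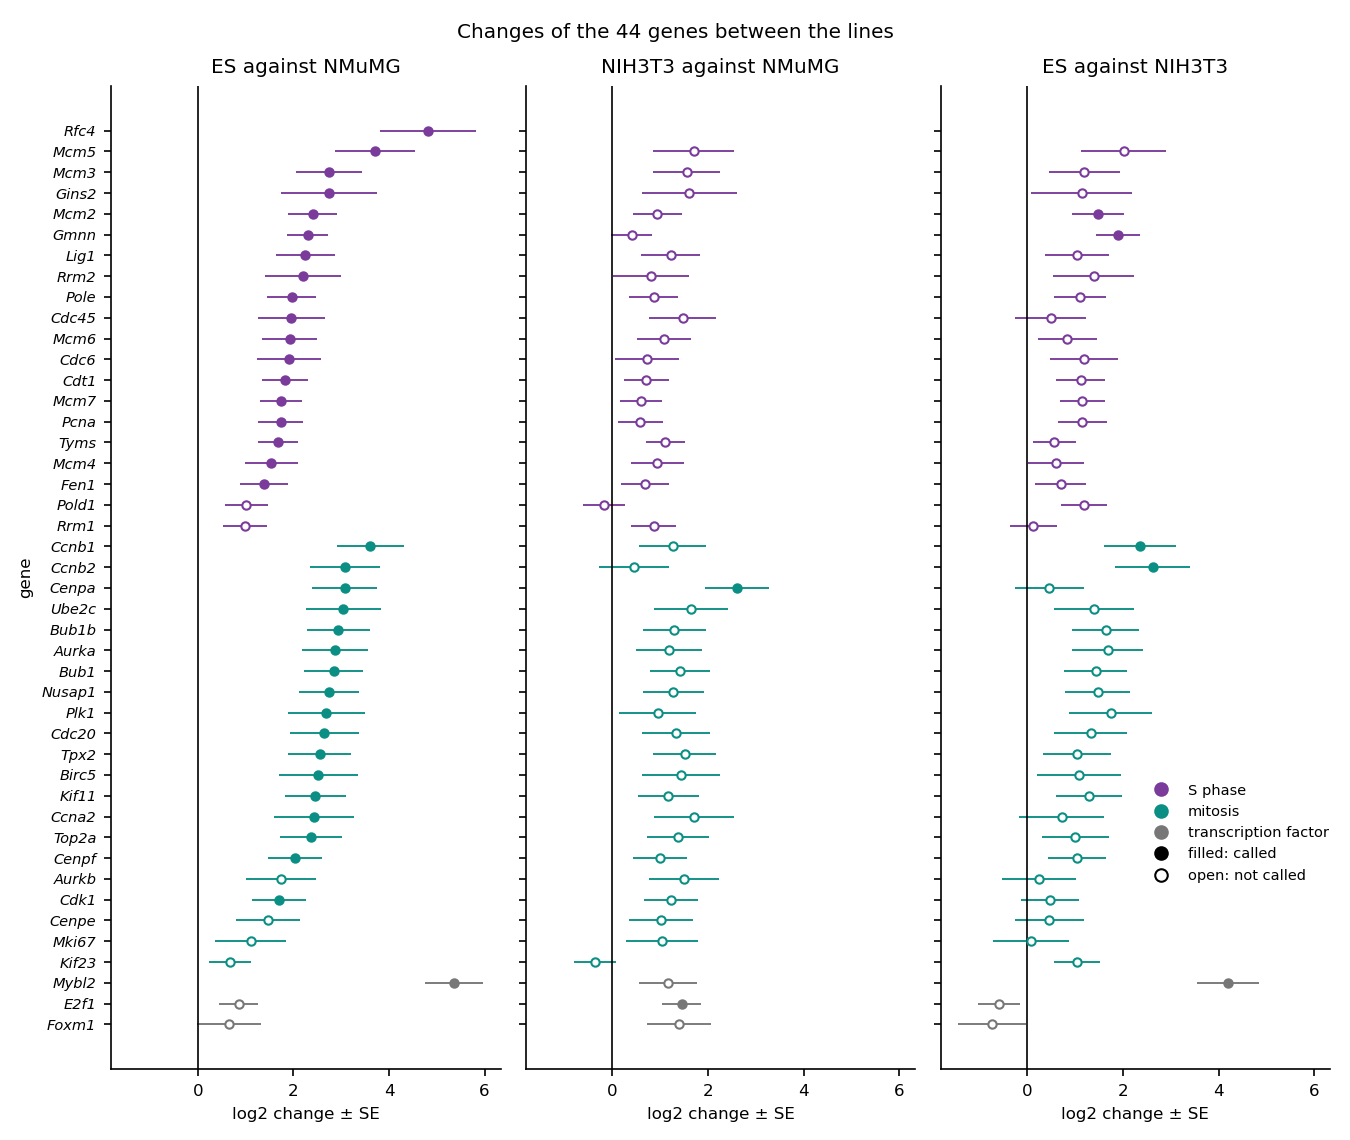
Log2 change with its SE for each of the 44 genes in the 3 line comparisons, by group and then by size in ES against NMuMG, with filled points for called genes. In the left panel 36 of 44 points are filled and all lie above 0, and Mybl2 lies farthest out at 5.36, while the middle and right panels leave out Rfc4, which is listed at 0 in NIH3T3.

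NIH3T3 cells had means between those of the other lines for most of the genes. Of the 44 genes, 2 rose in NIH3T3 over NMuMG cells and none fell, against 10.6% of all tested genes called higher and 25% called in either direction. They were Cenpa, with a log2 change of 2.61 (SE 0.675, adjusted p = 0.0107), and E2f1, with a log2 change of 1.45 (SE 0.410, adjusted p = 0.0171). Cenpa was also the only gene of the 44 for which every NIH3T3 culture lay above every NMuMG culture, a pattern of 18.8% of all tested genes. For 41 genes the log2 change was above 0, the exceptions being Pold1 (-0.18), Kif23 (-0.37) and Rfc4, listed at 0 in NIH3T3. The medians were 0.86 for S phase genes and 1.28 for mitosis genes, against -0.05 for all genes tested, and 6 of the 44 reached an unadjusted p under 0.05. Without NMuMG reporter 2 the medians were 0.41 and 0.61, without NIH3T3 2 they were 0.46 and 1.25, and without NMuMG parental 2 they were 1.30 and 1.78. The count rests on NMuMG parental 2: without it 27 genes were called, and without NIH3T3 2 Cenpa alone. Of all tested genes, those fits called 1508 of 12290 and 982 of 12029 higher. Within library series 2, the only one that holds both lines, the medians were 0.84 and 1.62 and none was called. NIH3T3 is 1 culture there and the spread comes from the NMuMG pair that differs most in these genes, so this count says nothing about stability.

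Between ES and NIH3T3 cells, 6 of the 44 genes were called higher in ES cells and none lower, against 20.1% of all tested genes called higher and 43% called in either direction. One of them is Rfc4, listed at 0 in all NIH3T3 cultures. The others were Mybl2 with a log2 change of 4.20 (SE 0.649, adjusted p = 0.000266), Ccnb2 with a log2 change of 2.62 (SE 0.781, adjusted p = 0.0138), Ccnb1 with a log2 change of 2.35 (SE 0.753, adjusted p = 0.0194), Gmnn with a log2 change of 1.90 (SE 0.466, adjusted p = 0.00492) and Mcm2 with a log2 change of 1.47 (SE 0.544, adjusted p = 0.0367). The B-type cyclins differed most among the mitosis genes, with Ccnb2 at 120.5, 126 and 72.6 FPKM in ES cultures, against 18.0, 16.4 and 13.7 FPKM in NIH3T3 cultures. Gmnn was at 139.9, 126 and 153 FPKM in ES cultures, against 37.0, 62.8 and 20.9 FPKM in NIH3T3 cultures. Neither gene's groups overlapped. Medians were 1.14 for S phase genes and 1.09 for mitosis genes, against 0.03 for all genes tested. E2f1 and Foxm1 had changes of -0.59 and -0.73 and were not called. In 30 of the 44 genes every ES culture lay above every NIH3T3 culture, which held for 33.7% of all tested genes. The spread in this fit is shared with the NMuMG cultures, which vary widely in these genes. With the ES and NIH3T3 cultures alone in the fit, an alternative chosen after seeing the data, 29 genes were called higher (13 of S phase, 15 of mitosis and Mybl2) and none lower. That fit called 2480 of 11489 tested genes higher. Without NMuMG reporter 2 the count was 24, without NMuMG parental 2 it was 17, and without NIH3T3 2 it was 11. Of all tested genes, those fits called 2523 of 12289, 2506 of 12290 and 2545 of 12029 higher. Without NIH3T3 3 the S phase median was 0.75. Within library series 2, the only one that holds both lines, the medians were 1.19 and 0.80 and none was called. It holds 1 culture of each, with the spread again taken from the NMuMG pair, so this count too says nothing about stability.

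Line means of FPKM stood in the order ES, NIH3T3, NMuMG for 38 of the 44 genes, an order found in 18.5% of all tested genes. The exceptions were Pold1, Rfc4, E2f1, Foxm1, Ccnb2 and Kif23, of which Ccnb2 follows the order on the log2 scale of the fits. In 28 of the 44 genes every ES culture lay above all 7 cultures of the other lines, against 23.4% of all tested genes. An order of means alone does not show that neighbouring lines differ. NIH3T3 and NMuMG ranges overlapped in 43 genes. Over all tested genes, 18.8% had every NIH3T3 culture above every NMuMG culture. Every ES culture lay above every NIH3T3 culture in 30 of the 44 genes, against 33.7% of all tested genes.

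Within a line, the genes spread far less between ES cultures than between NMuMG cultures. In ES cells the S phase genes spread less than all tested genes, and the mitosis genes spread more. The median range over the cultures of a line, on the log2(FPKM + 1) scale, was 0.27 for S phase genes and 0.56 for mitosis genes in ES cells, against 0.43 for all tested genes. In NIH3T3 cells it was 1.66 for S phase genes and 0.53 for mitosis genes, against 0.54 for all tested genes. In NMuMG cells it was 2.65 for S phase genes and 3.81 for mitosis genes, against 0.45 for all tested genes. Without NMuMG reporter 2 it was 1.29 for S phase genes and 1.73 for mitosis genes, against 0.35 for all tested genes.

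The 4 NMuMG cultures kept one order in almost all of the genes. Parental 2 was highest for all 44 genes (32.8% of all tested genes), and the full order of parental 2, reporter 1, parental 1 and reporter 2 held for 43 genes, against 7.47% of all tested genes. Rfc4 was the exception. Mitosis genes were the most extreme in reporter 2, where their median level was 1.61 FPKM, against 16.0 FPKM in reporter 1, 10.2 FPKM in parental 1 and 39.6 FPKM in parental 2. The median S phase level was 7.73 FPKM in reporter 2, against 23.1 FPKM in reporter 1, 19.5 FPKM in parental 1 and 47.2 FPKM in parental 2.

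Between NMuMG reporter and parental cultures no gene of the 44 passed the test, and the cultures of each kind differed widely. In the comparison of 2 reporter and 2 parental NMuMG cultures, limma called none of the 44 genes, none had an unadjusted p under 0.05 and the lowest adjusted p was 1, where 0.212% of 12276 tested genes were called. The median log2 changes were -1.12 for S phase genes and -1.64 for mitosis genes, against -0.03 for all genes tested. Without reporter 2 they were -0.29 and -0.28, and without reporter 1 they were -1.98 and -2.86. Without parental 2 they were -0.47 and -0.66, and without parental 1 they were -1.78 and -2.53. Each of these leaves an arm of 1 culture, whose spread is borrowed from the remaining groups. Without parental 1, Rfc4 was called lower, which rests on its 26.1 FPKM in parental 2 alone. No member was called for the difference between the reporter change in NMuMG and that in ES cells either, with no unadjusted p under 0.05, where 0.0244% of all genes were called.

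The pairs within a library series went opposite ways. In series 1, NMuMG reporter 1 was higher than NMuMG parental 1 in 43 of the 44 genes and level in Rfc4, listed at 0 in both. The median differences were 0.28 for S phase and 0.66 for mitosis genes, and none reached 2-fold in either direction, against 0.543% of all tested genes higher and 1.57% lower. In series 2, NMuMG reporter 2 was lower than NMuMG parental 2 by at least 2-fold in all 44 genes, a difference seen in 6.11% of all tested genes, while 1.69% were 2-fold higher. The median differences there were -2.65 for S phase and -3.81 for mitosis genes. Ccna2 differed most among the mitosis genes, at 1.61 FPKM in reporter 2 and 65.9 FPKM in parental 2. Kif23 differed least among them, at 10.8 FPKM in reporter 2 and 55.6 FPKM in parental 2. ES reporter 1 against ES parental 1 had no gene of the 44 past 2-fold, against 2.36% of all tested genes higher and 2.9% lower, with medians of -0.01 for S phase and 0.28 for mitosis genes. Each pair is 1 culture against 1 and has no replicate check.

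**Figure D4:**
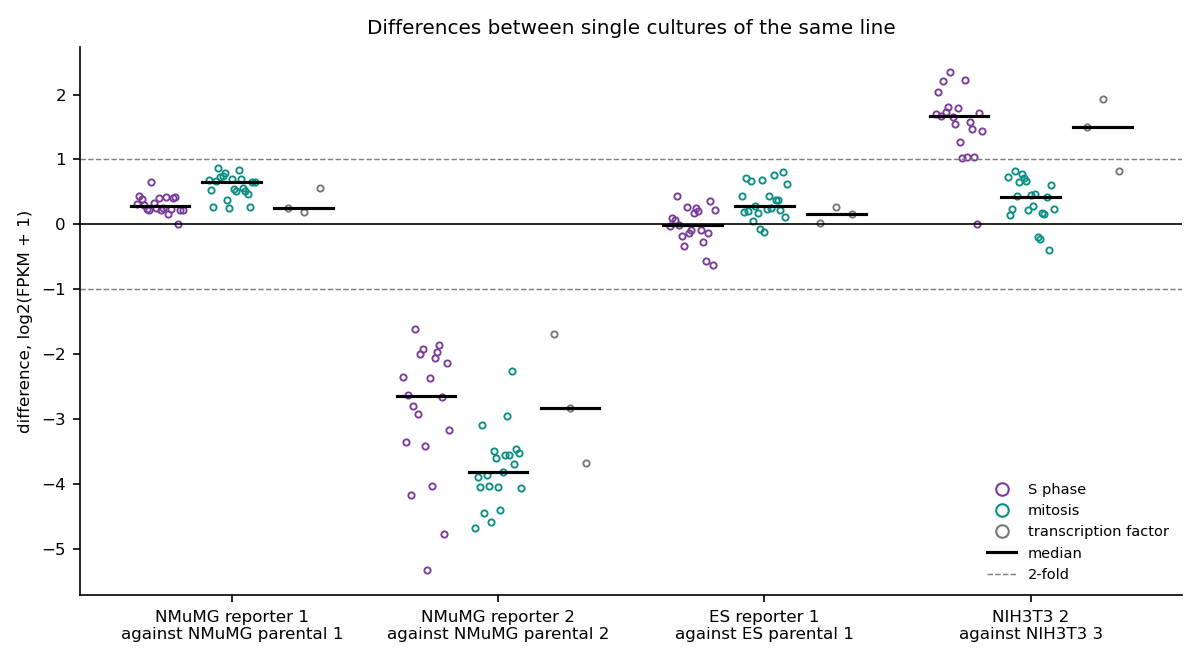
Difference in log2(FPKM + 1) between 2 single cultures of the same line for each S phase gene, mitosis gene and transcription factor, with 1 open point per gene, a bar for the median and dashed lines at 2-fold. All points of NMuMG reporter 2 against parental 2 lie below the lower line, and NIH3T3 2 against NIH3T3 3 has a median of 1.66 for S phase genes and 0.42 for mitosis genes.

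Other cell cycle genes of NMuMG reporter 2 had values of their own. Ccnd1, cyclin D1 of G1 phase, was at 384, 719, 183 and 414 FPKM in NMuMG reporter 1, reporter 2, parental 1 and parental 2. Cdkn1a, the CDK inhibitor p21, was at 282, 369.6, 172 and 216 FPKM in the same order, and Cdkn2b, the inhibitor p15, at 58.5, 129, 41.3 and 57.0 FPKM. Cdkn2a, which encodes p16 and p19ARF, was at 42.4, 92.6, 35.9 and 57.2 FPKM. All 4 were highest in reporter 2, while Ccne1, cyclin E1, was lowest there with 0.865 FPKM, against 8.60 FPKM in parental 2. These genes were chosen after their values were seen. Of the 14 CDK inhibitors and p53 targets, 4 were highest in reporter 2 (Cdkn1a, Cdkn2a, Cdkn2b and Ccng1) and 5 were lowest there (Cdkn1b, Cdkn2c, Cdkn2d, Sesn1 and Trp53). Of the 9 G1 cyclins and kinases, 2 were highest in reporter 2 and 5 were lowest there. Of 11 growth arrest genes 4 were highest and 2 lowest, and of 12 growth factor induced genes 6 were highest and 3 lowest. Over all tested genes, 22.3% were highest in reporter 2 and 31.5% were lowest. Summed housekeeping levels were 8605 to 10002 FPKM over the NMuMG cultures. The part of these genes in the low S phase and mitosis levels was not tested.

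In NMuMG cells both kinds of gene differed widely between cultures, whereas in NIH3T3 cells the S phase genes did and the mitosis genes differed little. NIH3T3 2 had the highest S phase values of its line in 19 of 20 genes, but the highest mitosis values in 7 of 21, where 27.6% of all tested genes had their highest value in that culture. Against NIH3T3 3, a library of the same series, NIH3T3 2 was at least 2-fold higher in 19 of 20 S phase genes and in none of 21 mitosis genes, against 4.36% of all tested genes. The median difference was 1.66 for S phase genes and 0.42 for mitosis genes. Against NIH3T3 1, of another series, it was at least 2-fold higher in 9 of 20 S phase genes and in no mitosis gene, against 2.15% of all tested genes, with medians of 0.93 and -0.10. Mcm3, for example, had 152 FPKM in NIH3T3 2, 36.3 FPKM in NIH3T3 3 and 56.5 FPKM in NIH3T3 1, whereas Kif11 had 17.5, 15.3 and 21.2 FPKM. E2f1 followed the S phase genes, with 39.7 FPKM in NIH3T3 2 and 13.4 FPKM in NIH3T3 3. NIH3T3 3 had the lowest value of its line in 40 of the 44 genes (33.1% of all tested genes). These are single cultures with no replicate check.

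The balance of both programmes per culture was the mitosis mean minus the S phase mean, without Rfc4 and Gins2, which are listed at 0 in some cultures. It was 0.15, -0.34 and -0.25 in ES reporter 1, ES reporter 2 and ES parental 1, and 0.01, -1.03 and 0.28 in NIH3T3 1, 2 and 3. In NMuMG reporter 1, reporter 2, parental 1 and parental 2 it was -0.37, -1.25, -0.63 and -0.12. The lowest balances were thus those of NMuMG reporter 2, whose levels of both kinds were low, and of NIH3T3 2, whose S phase level was high.

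**Figure D5:**
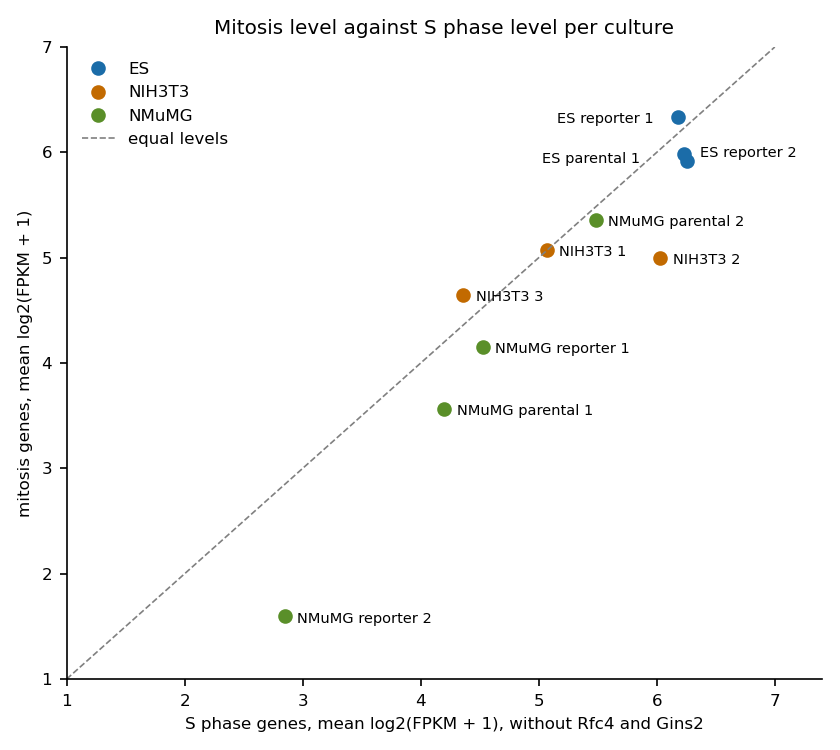
Mean log2(FPKM + 1) of 21 mitosis genes against that of 18 S phase genes (without Rfc4 and Gins2) for the 10 cultures, with 1 point per culture coloured by line and a dashed line of equal levels. NMuMG reporter 2 lies far below all others, and NIH3T3 2 lies to the right of the line, at a balance of -1.03.

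Across the 10 cultures the genes of each kind followed each other closely. As a description, the median Pearson r of a mitosis gene with the mitosis mean was 0.982 and that of an S phase gene with the S phase mean was 0.975. After taking out the mean of each line, the medians were 0.987 and 0.973, while across kinds they were 0.869 for mitosis genes with the S phase mean and 0.868 for S phase genes with the mitosis mean. Each member was left out of the mean it was set against, and the points share line and library series. After line means were taken out, r leans on the lines that spread most. The median range of mitosis genes was 3.81 in NMuMG cells, against 0.56 in ES and 0.53 in NIH3T3 cells. For S phase genes it was 2.65 in NMuMG, 0.27 in ES and 1.66 in NIH3T3 cells. Kif11 was the mitosis gene most like its mean (r = 0.998) and Kif23 the least (r = 0.744). Mcm6 was the S phase gene most like its mean (r = 0.994), and Pold1 the least (r = 0.843) among the 18 without Rfc4 and Gins2. Among 8869 other genes of at least 5 FPKM on average, Uhrf1 (r = 0.993), Dnmt1 (r = 0.992), Wdhd1, Exo1, Ercc6l, Clhc1, Mms22l, Mcm10, Prim1 and Dtl were most like the S phase mean, down to r = 0.979. Cdca3 (r = 0.998), Kifc5b, Nek2, Kifc1, Ncapg, Shcbp1, Hmmr, Mastl, Ncapd2 and Oip5 were most like the mitosis mean, down to r = 0.987. Kifc1 and Kifc5b are near-identical and may share reads, and Oip5 overlaps the member Nusap1.

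Further genes of the same pathways were counted from lists that hold none of the 44. Of 36 other replication genes, 32 rose in ES over NMuMG cells and none fell, with a median log2 change of 1.81. Among them Orc1, the large subunit of the origin recognition complex, had a log2 change of 3.62 (SE 0.441, adjusted p = 4.47e-05), and Ung, the uracil glycosylase, a log2 change of 3.48 (SE 0.534, adjusted p = 0.000222). Of 52 other mitosis genes, 42 rose and none fell, with a median of 2.21, led by Cdca8 of the passenger complex at 3.22 and the kinetochore gene Spc24 at 3.17. Without NMuMG reporter 2, 27 of the other replication genes and 36 of the other mitosis genes were called higher (2302 of 12289 tested genes). The order of the 4 NMuMG cultures found in the 44 genes held for 28 of the 36 other replication genes and 51 of the 52 other mitosis genes, and NIH3T3 2 was the highest NIH3T3 culture for 33 and 24 of them. The pocket proteins, other E2F factors and MuvB subunits were mostly not called: 5 of 17 rose and 1 fell, with a median of 0.73. Of these, E2f4 rose by 2.19 and E2f7 by 1.67, and the p130 gene Rbl2 fell by 2.23. Of 9 G1 cyclins and kinases 5 rose and 3 fell, with Ccne1 at 4.69 and Cdc25a at 1.68 on one side, and Ccnd1 at -3.19 and Ccnd2 at -3.14 on the other. Of 14 CDK inhibitors and p53 targets 2 rose and 7 fell, with Cdkn2b at -5.30 and Cdkn1a at -3.75, while Cdkn1c, the inhibitor p57, rose by 2.60 and Trp53 itself by 1.02. Of 11 growth arrest genes none rose and 5 fell, among them the antiproliferative gene Btg1 at -3.15. Of 12 growth factor induced genes 3 rose, with the MYC family gene Mycn at 6.28 and Odc1, of polyamine synthesis, at 1.90, and 7 fell, with the AP-1 gene Fosl1 at -4.05 and the immediate early gene Ier3 at -3.65. Of 12 housekeeping genes 2 rose, Gapdh at 1.24 and Tbp at 1.01, and 4 fell, with Hprt at -6.90 and B2m at -4.70. Their median was -0.05. These shares stand beside 19.4% of all tested genes called higher and 26.4% called lower.

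In NIH3T3 over NMuMG cells, 6 of 36 other replication genes rose and 2 fell (median 0.93), and 8 of 52 other mitosis genes rose and none fell (median 1.11), where 10.6% of all tested genes were called higher. Leaving out NMuMG reporter 2 gave 2 other replication genes and 7 other mitosis genes called higher (1244 of 12289 tested genes), with medians of 0.47 and 0.52. The kinase gene Cdc7, which fires origins, rose by 1.46, while its activator Dbf4 fell with a log2 change of -1.62 (SE 0.455, adjusted p = 0.0160). Cenpm and Cenpn, centromere genes like Cenpa, had the largest changes of the mitosis list at 2.09 and 2.03. In ES over NIH3T3 cells, 16 of 36 other replication genes rose and none fell (median 1.11), and 11 of 52 other mitosis genes rose and 1 fell (median 0.99), where 20.1% of all tested genes were called higher, so the share of the mitosis list was near the background. Leaving out NMuMG reporter 2 gave 17 other replication genes and 25 other mitosis genes called higher (2523 of 12289 tested genes). Gtse1, a microtubule binding protein of G2 and mitosis, led the other mitosis genes at 2.51, followed by Spc24 at 1.97. The one that fell, the phosphatase gene Cdc25b, had a log2 change of -1.37 (SE 0.415, adjusted p = 0.0151). Of the other E2F factors, E2f6, a repressor, rose by 2.84 in ES over NIH3T3 cells and fell with a log2 change of -2.74 (SE 0.273, adjusted p = 1.9e-05) in NIH3T3 over NMuMG cells. Pold2, a subunit of the polymerase of Pold1, was listed at 0 in all NIH3T3 cultures, with 100.2, 90.0 and 80.5 FPKM in ES cultures and 27.3, 27.4, 23.2 and 46.0 FPKM in NMuMG cultures, and is uncertain like Rfc4.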

How the data were processed

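RNA-seq libraries of 3 mouse lines (11 libraries, 10 cultures) were used. The deposited tables hold FPKM per gene made by the authors, per the file headers. Reads were processed with bcl2fastq 1.8.4, TopHat and Cufflinks on mm10, per the submitters' processing notes, and the TopHat and Cufflinks versions, annotation and counting strand are not given in the sources used here. No counts were given, so depth is unknown and no count test was run.

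The 44 genes and all other lists were chosen with earlier results of these data known. Of 23849 entries, those of a symbol with several entries (260 symbols) were added up and 3 symbols marked as failed were left out, which gave 23352. The 2 technical runs of 1 culture were averaged. limma 3.58.1 (R 4.3.3) with an intensity trend was fitted to log2(FPKM + 1), which understates changes of low genes, over genes that reached 1 FPKM in 3 or more cultures (2 for the reporter comparison), two-sided, with Benjamini-Hochberg adjustment over all genes tested. Genes were called at an adjusted p under 0.05 and at least 2-fold. NIH3T3 2 and 3 entered the line comparisons but not the reporter comparison. Values by culture were given for the 2 most abundant members of each role class, the one with the largest change, Mki67 and the 3 factors. From other lists, log2 changes were given for genes among the 2 largest called changes each way. Ccnb2, Gmnn, Kif11, Ccnd1, Cdkn1a, Cdkn2a, Cdkn2b and Pold2, and in part Ccne1, were also given by culture, chosen after their values were seen. Fits were tested on simulated data. Alternatives were the pseudocount, the filter, scaling, a block for library series, fits within a library series and leaving out cultures. Fits of only the lines compared and counts without Rfc4 and Gins2 were added after seeing the data. Motifs were searched in RefSeq promoter windows with Python 3.11.15.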

Additional observations from a re-analysis of the deposited data

Results flagged for a closer look

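Among 46 groups of 4 cultures checked, 1 value lay far from the others of its group: Rfc4 in NMuMG parental 2, at 26.1 FPKM, where the other 3 NMuMG cultures were listed at 0. Chance flags about 1 in 20 such groups. Rfc4 overlaps Eif4a2, and the part of this overlap in the values was not tested.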

How the results depend on the processing

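For ES against NMuMG cells the count of 36 genes called higher stayed within 1.5 times under the pseudocount, filter, scaling, block and single-line alternatives, and was 28 to 44 with 1 culture left out, but 0 within library series 2. With library series as a block it was 29 for ES against NMuMG (2371 of 12350 tested genes). It was 0 for NIH3T3 against NMuMG (2 without the block) and 2 for ES against NIH3T3 (6 without the block). Series 3 holds only NIH3T3 cultures, so under the block the NIH3T3 comparisons rest on NIH3T3 1 for that line. The series are not known to pair cultures, and deviations of NMuMG reporter 1 and NMuMG parental 1 correlated at r = 0.274 over 12276 genes. For NIH3T3 against NMuMG the count was 1 to 27 with 1 culture left out (27 without NMuMG parental 2, 1 without NIH3T3 2) and 0 within library series 2. For ES against NIH3T3 it was 13 with scaling to a common median, 29 with only the 2 lines compared, 4 to 24 with 1 culture left out (24 without NMuMG reporter 2, 17 without NMuMG parental 2, 11 without NIH3T3 2) and 0 within library series 2. For NMuMG reporter against NMuMG parental the mitosis median was -2.86 to -0.28 and 0 to 1 genes were called lower with 1 culture left out. None of the 44 genes was called lower in the line comparisons under any alternative run. For ES against NIH3T3, scaling to a common median called 2842 of all 12355 tested genes higher.

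The 18 reversed log2 changes were all of genes not called. In NIH3T3 against NMuMG, Pold1 changed sign to 0.11 under the block, 0.063 in library series 2, 0.27 without NIH3T3 3 and 0.17 without NMuMG parental 2. Ccnb2 was at -0.32 without NMuMG reporter 2, and without NMuMG parental 2 Rfc4 was at 0 and Kif23 at 0.054. In ES against NIH3T3, under the block Aurkb was at -0.25, Cenpe at -0.38 and Mki67 at -0.26. In library series 2 Aurkb was at -0.16 and Cenpe at -0.58. Without NIH3T3 3 Aurkb was at -0.023 and Rrm1 at -0.060, and Rrm1 was at -0.0010 without NIH3T3 1, and Mki67 at -0.10 without ES reporter 1. In NMuMG reporter against NMuMG parental, Cenpf was at 0.036 without NMuMG reporter 2 and Rfc4 at 0 without NMuMG parental 2. The causes were not tested. Of the other log2 changes of the members over all settings, 2575 kept their direction and side of the threshold, 102 lost a call and 116 gained one.

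With FPKM alone the depth behind a value is unknown. A value listed at 0 is given as listed only.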
